A study of Homo sapiens with 2 samples.

Results

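PFKP and LINC02669, a pair of genes on the short arm of chromosome 10, and the sequence between and beyond them were examined for RNA bound by MTR4. The members were the listed peaks that share at least 1 base with either gene, selected on the positions in the peak list itself, so their numbers and places are a description and were given no test. PFKP held 2 peaks and LINC02669 held 10. They were described together with the other 37 peaks between 3.0 and 4.0 Mb of the chromosome, which makes 49 of the 516 peaks of chromosome 10 and of 3304 listed positions in all.

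RNA immunoprecipitation followed by sequencing (RIP-seq) captures a protein with an antibody and sequences the RNA that comes with it. The cells were PLC/PRF5, an established hepatocellular carcinoma line, and overexpressed MTR4 with an HA tag, so the tagged protein was present above its natural level. Both libraries came from such cells: 1 was captured from lysed nuclei with an anti-HA antibody and 1 with IgG, the control in the protocol, though its title describes it as an input. The peaks come from the anti-HA library, the IgG library was not analysed here, and neither antibody had a replicate. The list gives positions on hg19, and each position is 400 bases wide. Its score was 60 at all 49 positions and does not measure enrichment, so the peaks carry no height, and how strongly each was bound is unknown. In such nuclear RNA, more RNA from a place and more binding per RNA cannot be told apart.

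MTR4 is an RNA helicase of the nucleus. It unwinds RNA and hands it to the exosome, which trims and degrades it, and the adaptors that carry it there act on short-lived products such as promoter upstream transcripts, enhancer RNAs, prematurely ended transcripts and introns. PFKP encodes the platelet type of phosphofructokinase, which turns fructose 6-phosphate into fructose 1,6-bisphosphate, the committed step of glycolysis, and PFKM and PFKL encode the muscle and liver types. LINC02669 is a long noncoding RNA (lncRNA) gene with no role given in the sources used here.

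The sequences on which the description turns are the pair of PFKP peaks and the first peak of the dense run that follows. The fourth is the LINC02669 peak with the most motif matches on the strand of that gene. Each is the middle 300 bases of its peak, read from the GRCh37 (hg19) genome. In peaks 34, 44 and 67 the capitals mark CCANC, where N is any base but A, a motif that the study assigned to MTR4. In peak 35 they mark bases of a coding exon. Peaks are called by the running number in their names.
Peak 34 of PFKP, chr10:3165552-3165851, + strand: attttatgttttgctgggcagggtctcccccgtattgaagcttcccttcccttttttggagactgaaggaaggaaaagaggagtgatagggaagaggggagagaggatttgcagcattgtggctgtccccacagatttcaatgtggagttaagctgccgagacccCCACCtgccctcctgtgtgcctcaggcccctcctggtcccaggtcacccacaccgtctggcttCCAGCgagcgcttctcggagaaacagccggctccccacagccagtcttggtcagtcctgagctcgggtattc
Peak 35 of PFKP, chr10:3167052-3167351, + strand: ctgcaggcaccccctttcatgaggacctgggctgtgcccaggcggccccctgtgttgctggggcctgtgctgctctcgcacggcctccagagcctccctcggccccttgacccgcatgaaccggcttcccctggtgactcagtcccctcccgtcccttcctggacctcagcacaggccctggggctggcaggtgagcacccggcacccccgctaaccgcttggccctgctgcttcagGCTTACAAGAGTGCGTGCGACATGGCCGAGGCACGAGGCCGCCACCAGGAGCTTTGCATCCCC
Peak 44, chr10:3364452-3364751, + strand: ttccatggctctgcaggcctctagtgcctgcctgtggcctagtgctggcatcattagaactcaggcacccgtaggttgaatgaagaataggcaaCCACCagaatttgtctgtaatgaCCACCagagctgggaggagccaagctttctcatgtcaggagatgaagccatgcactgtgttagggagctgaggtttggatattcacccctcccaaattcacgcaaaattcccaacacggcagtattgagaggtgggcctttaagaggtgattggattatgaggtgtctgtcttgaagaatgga
Peak 67 of LINC02669, chr10:3500252-3500551, - strand: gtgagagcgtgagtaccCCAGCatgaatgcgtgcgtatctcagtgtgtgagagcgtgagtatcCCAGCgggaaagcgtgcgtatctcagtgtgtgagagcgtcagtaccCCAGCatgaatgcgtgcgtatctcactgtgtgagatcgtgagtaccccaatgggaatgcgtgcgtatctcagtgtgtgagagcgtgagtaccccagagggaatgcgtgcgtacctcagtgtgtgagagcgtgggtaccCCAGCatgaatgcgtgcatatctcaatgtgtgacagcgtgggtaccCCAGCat

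Both PFKP peaks lay in 1 intron, close to the 3′ end of the gene. PFKP (ENSG00000067057) spans chr10:3108525-3179910 on the + strand, 71386 bases with 17 annotated transcripts. Peak 34 covered chr10:3165502-3165901 and peak 35 covered chr10:3167002-3167401, with 1100 bases between them. In the canonical transcript, PFKP-203, which has 22 exons, both fell in intron 16 (chr10:3162237-3172010), and peak 34 began 80.5% of the way along the transcript. Intron 16 is 9774 bases long and ranks 3 by length among 21 introns. The longest, intron 2 with 16813 bases, held no peak.

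Peak 35 reached into a coding exon that PFKP-203 does not use. Inside its intron 16, GENCODE places an exon at chr10:3167289-3167441, which is exon 17 of PFKP-217 and exon 4 of PFKP-205. This exon has 153 bases, all coding, and peak 35 covered 113 of them together with the splice acceptor before it. The printed piece of peak 35 shows the intron, its last bases ag, and the first 63 bases of the exon in capitals. Peak 34 lay wholly in the intron and ended 1387 bases before the exon. Peak 35 was the 1 peak of the 49 that shared any base with an exon (2.04%), and its midpoint was intronic.

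**Figure D1:**
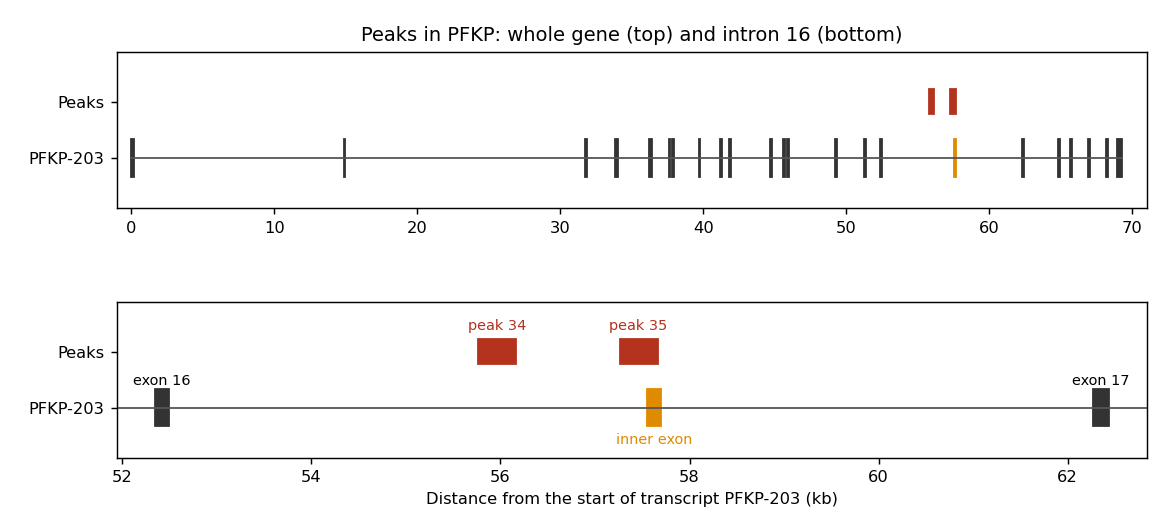
Exons of PFKP-203 (black), the inner exon of PFKP-205 and PFKP-217 (orange) and the 2 listed peaks (red), for the whole transcript and for intron 16, against the distance in kb from the start of PFKP-203. Peak 34 lies between exon 16 and the inner exon, and peak 35 overlaps the start of the inner exon.

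The inner exon resembles exon 16, which lies 5052 bases before it at chr10:3162084-3162236. Both have 153 bases, or 51 codons, and they are identical at 88 positions (57.5%) when set side by side without gaps. Among 70929 windows of that length across the PFKP span, exon 16 was the one most like the inner exon, and the next window reached 68 positions (44.4%). The pair is shown because both peaks lie between the end of exon 16 and the end of its relative. Capitals mark the 65 positions at which the 2 exons differ.
Exon 16 of PFKP-203, chr10:3162084-3162236, + strand: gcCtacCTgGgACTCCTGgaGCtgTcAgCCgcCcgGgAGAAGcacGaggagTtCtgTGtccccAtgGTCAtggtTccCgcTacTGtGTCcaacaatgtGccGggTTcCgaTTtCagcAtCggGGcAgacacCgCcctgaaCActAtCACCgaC
Inner exon of PFKP, chr10:3167289-3167441, + strand: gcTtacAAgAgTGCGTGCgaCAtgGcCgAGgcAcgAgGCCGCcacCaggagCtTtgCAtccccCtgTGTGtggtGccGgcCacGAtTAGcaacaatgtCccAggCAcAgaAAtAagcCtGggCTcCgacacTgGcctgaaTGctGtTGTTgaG

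Of the 8 annotated transcripts that run across both exons, 6 carry exon 16 and not the inner exon. PFKP-205 carries the inner exon alone, and PFKP-217 carries both. Which of these transcripts the cells made was not measured here. Peak 34 began 3265 bases after exon 16, and peak 35 ended 4609 bases before exon 17.

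Of the PFKP peaks, peak 35 stood apart in base content within the stretch, while peak 34 was close to peak 67, with 55.0%. The GC content of peak 34 was 55.8% and that of peak 35 was 66.5%, the 2 highest of the 49 peaks, which ran from 34.8% with a median of 42.5%. Each held 2 matches to CCANC on the strand of the gene. The study's notation for this motif can also be read as CCAGNC, again with no A at N, and in that form peak 34 held 1 match and peak 35 held 2.

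PFKP was 1 of 237 protein-coding genes of chromosome 10 with a peak, among 742 such genes (31.9%). GENCODE places 3 protein-coding genes in the stretch, and 2 of them had no peak. PITRM1 (chr10:3179920-3215033, - strand), which encodes a peptidase of the mitochondrion, ends next to the end of PFKP. KLF6 (chr10:3818188-3827473, - strand) encodes a zinc finger transcription factor. After peak 35, 197000 bases passed without a listed peak.

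Peaks then came in quick succession. From peak 44 to peak 91, 44 peaks stood within 304600 bases (chr10:3364402-3669001), with a median of 5600 bases between neighbouring starts. The spacings ran from 1900 to 30900 bases, and 38 of 43 were at most 10000 bases. The mean was 7074 ± 5716 bases (SD, n = 43 spacings). The listed positions covered 5.78% of this span. All of them have the same width in the list, so this share follows from that width and their number. It cannot show whether the bound RNA was continuous or in short pieces, because the list holds no heights or depth.

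LINC02669 lay in the middle of this run and held 10 of its peaks. LINC02669 (ENSG00000233321) spans chr10:3474711-3545107 on the - strand, 70397 bases with 22 annotated transcripts. Its length and its exonic share (10.9%) were close to those of PFKP (71386 bases and 10.9%), while it held 14.2 peaks per 100 kb against 2.8 in PFKP. Its peaks were 63, 64, 65, 66, 67, 68, 70, 71, 72 and 73. The first began at 3479002 and the last ended at 3531101, with a median spacing of 6900 bases and a range of 1900 to 9000.

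All 10 LINC02669 peaks were intronic. They fell in intron 3 of the canonical transcript, which has 5 exons. This intron takes up chr10:3477171-3539844, or 62674 bases. None touched an exon of any of the 22 transcripts. The nearest was peak 73, 158 bases from an exon, and the farthest was peak 67, 16956 bases from one.

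The run continued on both sides of LINC02669, with a wider gap across 1 border. Peak 62 (chr10:3472502-3472901) stood 1810 bases outside one end of the gene and peak 75 (chr10:3551102-3551501) stood 5995 bases outside the other. Peak 75 began 20400 bases after the previous peak, against at most 9000 bases between neighbouring starts inside the gene. From the start site described next to the border of LINC02669, 18 peaks lay in 113824 bases, or 15.8 per 100 kb. Inside the gene the density was 14.2 per 100 kb, and from its other border to the end of peak 91 it was 12.9 per 100 kb, with 16 peaks in 123894 bases. LINC02669 was 1 of 58 lncRNA genes of chromosome 10 with a peak, among 781 (7.43%).

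RefSeq annotates a longer lncRNA gene here on the other strand, LOC105376360 (+). RefSeq's coordinates are on GRCh38.p14 and were not used. The 300-base sequence around its start site was found once on hg19 chromosome 10, which puts the start site at 3360887. All 21 start-site sequences sought for genes from PFKP to KLF6 matched once. Among them was that of LOC124902565, at 3363002 on the - strand. RefSeq lists LOC124902565 as protein-coding and as partly overlapping LOC105376360, and it is not among the GENCODE genes counted here. In RefSeq's order of genes, 7 genes including LINC02669 lie inside LOC105376360. LOC105376360 ends before LOC124902540, whose start site was found at 3797489 on the - strand. The end of LOC105376360 was not located on hg19.

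The first peak of the run, peak 44, began 3515 bases after the start site of LOC105376360. From that site on, consecutive 50 kb steps held 7, 8, 10, 6, 6, 5, 2, 1 and 1 peaks, 46 in all before the start site of LOC124902540. Counted by 100 kb, the first 3 steps held 15, 16 and 11 peaks and the fourth held 3. The 10 peaks of the step from 100 to 150 kb, in which the - strand gene LINC02669 ends, were the most. The next step, with the rest of that gene, held 6, and no step beyond 300 kb held more than 2. The reads' strand is not in the list, so LINC02669 and LOC105376360 cannot be told apart as the source of the 10 shared peaks.

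**Figure D2:**
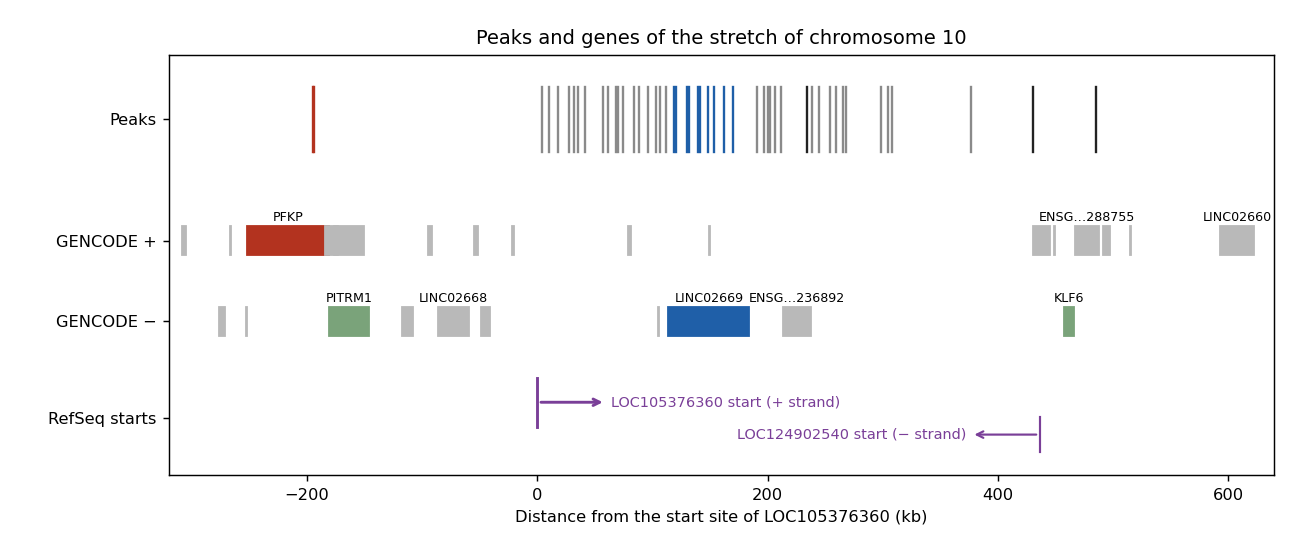
Listed peaks (top; red in PFKP, blue in LINC02669, black in another GENCODE gene, grey in none), GENCODE genes on each strand (protein-coding PITRM1 and KLF6 in green, lncRNA genes in grey) and 2 RefSeq start sites, against the distance in kb from the start site of LOC105376360. The run of peaks begins 3515 bases after that start and continues on both sides of LINC02669. Across the right border of that gene, neighbouring peaks begin 20400 bases apart.

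Most peaks of the run lay in no GENCODE gene. A gene held 11 of the 44, the 10 of LINC02669 and peak 82 in an intron of the lncRNA gene ENSG00000236892 (chr10:3574286-3598506, - strand), and the other 33 lay outside genes. Over all 49 peaks, 34 were in no gene (69.4%, Wilson 95% interval 55.5 to 80.5%). Elsewhere on chromosome 10, 31 of 467 were (6.64%, 4.72 to 9.27%). With LOC105376360 counted as a gene from its start site to peak 93, none of the 49 was outside a gene. Peak 93 is the last peak in no GENCODE gene, so this result follows from the end chosen. The share depends on whether LOC105376360 is counted and on where it ends, which was not located on hg19.

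By midpoint, 0 of 49 peaks were exonic, with a Wilson 95% upper limit of 7.27% (6.12% if 3 peaks are taken as the most that a count of 0 allows), against 172 of 467 elsewhere on the chromosome (36.8%, 32.6 to 41.3%). Exons make up 6.36% of the bases between 3.0 and 4.0 Mb, which the Wilson limit includes. Over the span of peaks 44 to 91 they make up 3.84% and genes make up 32.3%. Intronic midpoints made up 15 of 49 (30.6%, 19.5 to 44.5%) against 264 of 467 (56.5%, 52.0 to 61.0%). These intervals cover counting error only, and neighbouring peaks in 1 transcript are not independent, so they are narrower than they should be.

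Beyond peak 91 the peaks thinned out. Peak 93 (chr10:3737402-3737801) lay in no gene. Peak 94 lay in an intron of ENSG00000229672 (chr10:3791158-3805904, + strand), and peak 98 in an intron of ENSG00000288755 (chr10:3827743-3848784, + strand), a lncRNA gene that begins beside KLF6. Of 23 lncRNA genes between 3.0 and 4.0 Mb, 4 held a peak. At the limits of the window, the last peak before it was peak 29 at 1147402, 2017700 bases before peak 34, and the first after it was peak 109 at 5735202, 1888800 bases after peak 98.

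No other 1 Mb window of chromosome 10 came near this count. Of 134 windows with sequence, this one held 49 peaks and the next held 18, at 33 to 34 Mb, where ITGB1 lies. The other windows had a median of 3 peaks, and 34 had none. The window makes up 0.762% of the sequenced bases of the chromosome and 9.5% of its listed peaks. Of the running numbers in the peak names, 75.4% were listed in the stretch and 28.4% on the chromosome outside it. These counts and ranks therefore hold for the listed peaks only. By gene, ITGB1, which encodes the integrin beta 1 subunit, held the most peaks of the chromosome with 12, and LINC02669 was next with 10. CACNB2, a calcium channel subunit gene, held 9 and JMJD1C held 8, while PARD3, SVIL, TCF7L2 and VCL held 7 each.

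**Figure D3:**
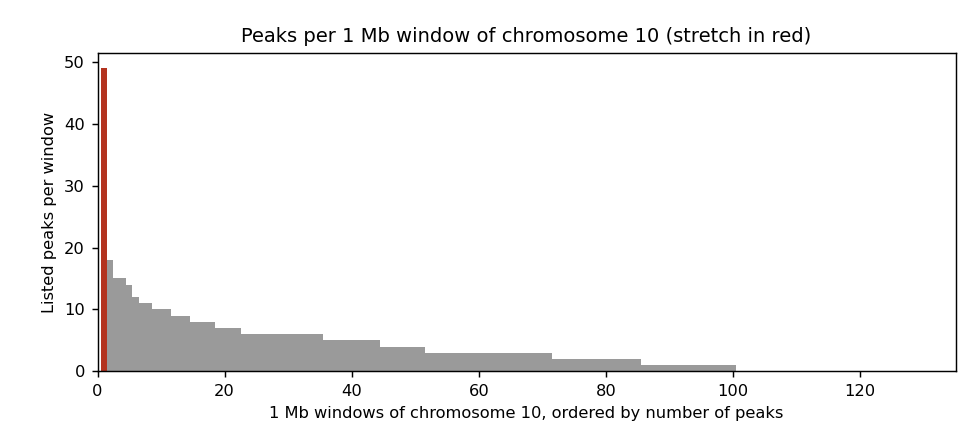
Number of listed peaks in each of the 134 windows of 1 Mb of chromosome 10 with sequence, ordered from most to fewest. The window with PFKP and LINC02669 (red) holds 49 peaks, and the next holds 18.

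Across the chromosomes with listed peaks, the run was exceeded by 1 other. Some chromosomes, chromosome 1 among them, held 0 listed peaks and do not enter this ranking. When peaks up to 20000 bases apart were joined, 28 peaks (chr10:3364402-3531101) formed the run that came after 40 peaks in FNDC3B and before 20 in SNHG14. With a limit of 50000 bases it held 44 peaks against 54 in FNDC3B. FNDC3B is a protein-coding gene of 362092 bases on chromosome 3, and SNHG14 is a long noncoding host transcript of small nucleolar RNAs on chromosome 15. In the runs of FNDC3B and SNHG14, 0 peaks lay in no gene, against 33 of 44 here.

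Over the first 300 kb from the start, 42 peaks lay here, 53 in FNDC3B and 20 in SNHG14. Over the 436603 bases up to the start site of LOC124902540 the density here was 10.5 per 100 kb, against 14.9 over the whole of FNDC3B and 4.98 over the whole of SNHG14. Up to the end of peak 91, 308115 bases from the start site and an end set by the peaks themselves, it was 14.3. FNDC3B had its first peak 3934 bases after its start, against 3515 here, and a median spacing of 4500 bases against 5600. The first peak of SNHG14 came 23322 bases after its start. In the first of 2 equal parts of the 436603-base span lay 34 of 46 peaks, against 32 of 54 for the whole of FNDC3B and 20 of 22 for the whole of SNHG14. That span takes in the - strand gene LOC124902540, which lies after LOC105376360, so it is longer than LOC105376360. Its density and its share are therefore not those of a gene.

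**Figure D4:**
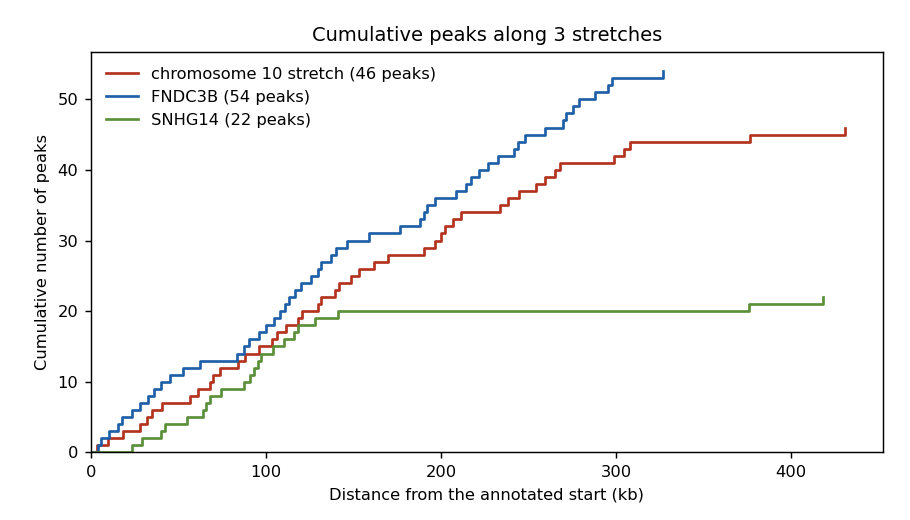
Cumulative number of listed peaks against the distance in kb from the start site of LOC105376360 (red, 46 peaks up to the start site of LOC124902540) and from the annotated starts of FNDC3B (blue, 54) and SNHG14 (green, 22). At 300 kb the red line has reached 42 peaks and the blue line 53, and the green line stops at 20 peaks before 150 kb and gains 2 far beyond.

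The peaks' sequences were then searched for both motifs of MTR4 named by the study. CCANC with no A at N stood in 39 of 49 peaks (79.6%, 66.4 to 88.5%), with 79 matches. It was in 71.7% of the other peaks of chromosome 10, in 73.3% of all peaks and in 75.2% of all 400-base windows between 3.0 and 4.0 Mb. Its interval in the peaks includes the shares of all 3 of these sets. Each was searched on 1 strand, that of the gene or + where there was none.

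In LINC02669, 8 of 10 peaks held the motif on the - strand, that of the gene, with 0 to 7 matches each. Peaks 65 and 68 held none on that strand, and 4 and 1 with both strands searched. The strand of the bound RNA is unknown, so these counts hold for the - strand only. Peak 67 held the most on the - strand, and with both strands searched peaks 64 and 67 held 7 each. The 400 bases of peak 67 are a tandem repeat, which the printed sequence shows. At a shift of 46 bases it was identical to itself at 90.4% of positions, and CCAGC recurs in copies of the unit, with 5 of the 7 matches in the printed piece. The next highest among the 49 peaks was 38.3%, in peak 65, and the median was 33.3%. Of all 400-base windows of the stretch, 1.6% reached 60% at some shift from 10 to 200 bases, against 1 of 49 peaks (2.04%). Peak 64, with 5 matches on the - strand, showed no such repeat.

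The other reading of the motif, CCAGNC with no A at N, gave a share that turned on the strand. On 1 strand it stood in 12 of 49 peaks (24.5%, 14.6 to 38.1%), against 43.5% (39.0 to 48.0%) of the other peaks of chromosome 10 and 41.1% (39.2 to 43.0%) of the windows of the stretch. In peaks 44 to 91 it was in 20.5% (11.2 to 34.5%), against an interval of 31.6 to 38.4% for windows of their own span (266 of 761 windows), and there the intervals overlap. Searched on each strand in turn, 10 of these 44 peaks held it on the + strand and 16 on the - strand. With both strands searched, it was in 24 of 49 peaks (Wilson 95% interval 35.6 to 62.5%), an interval that includes the 58.7% of the other peaks of chromosome 10 and the 59.8% of windows. The 34 peaks in no gene have no strand of their own, so the lower share on 1 strand is not taken as a difference.

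The poly(A)-like motif, an A-rich stretch also assigned to MTR4, was in 0 of 49 peaks, with the same upper limits of 7.27% and 6.12%. Its background was low as well, with 1.93% of the other peaks of chromosome 10 and 3.96% of the windows of the stretch. A run of 8 A stood in 5 peaks (10.2%), against 10.8% of windows. The polyadenylation signal AATAAA stood in 12 peaks (24.5%), against 24.5% of windows. CTCTCT and TCTT, which the splicing repressor PTBP1 is known to bind, stood in 24.5% and 75.5% of peaks against 17.2% and 84.8% of windows. The share in windows lay inside the Wilson 95% interval of the peaks for all 4 of these. Of the other peaks of chromosome 10, 14.3% held CTCTCT, just below the interval of 14.6 to 38.1%. With both strands searched, 25.1% held it, below the interval of 28.2 to 54.8%. On 1 strand they held TCTT in 81.6%, AATAAA in 22.5% and a run of 8 A in 8.35%, each inside the interval of the peaks. The difference in CTCTCT was not tested.

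GC content was 44.7 ± 6.83% (SD, n = 49 peaks), against 44.4 ± 7.66% in the 400-base windows of the stretch. The mean of the other peaks of chromosome 10 was similar, 45.1%, with a wider spread (SD 11.5%, n = 467). In LINC02669 the peaks ran from 35.5 to 55.0% with a mean of 44.4 ± 6.04% (n = 10), the highest being the repeat of peak 67. Peaks 44 to 91 had 44.1 ± 5.93%, against 43.1 ± 7.32% in windows of their span.

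**Figure D5:**
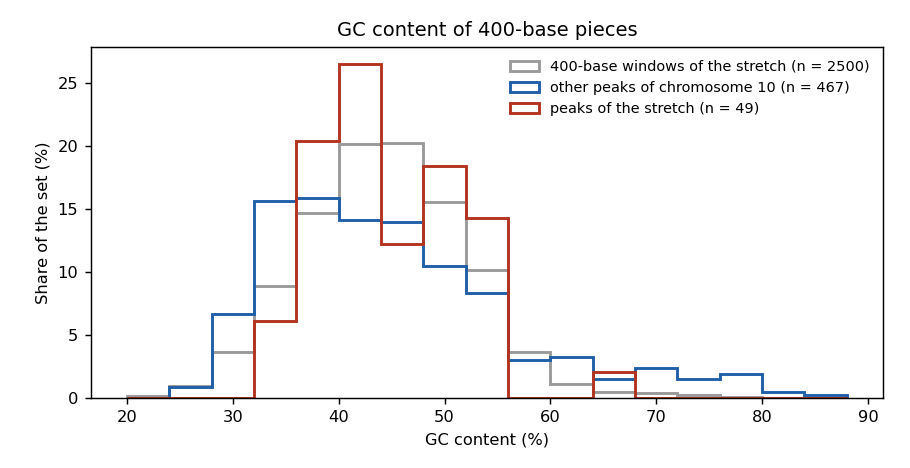
GC content in percent of the 49 peaks of the stretch (red), the other 467 peaks of chromosome 10 (blue) and 2500 windows of 400 bases of the stretch (grey), as shares of each set in percent. The red and grey outlines cover much the same range, the blue outline reaches 84.8%, and the red step at the right is peak 35 of PFKP with 66.5%.

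PFKP was then set among the genes of its pathway. The list of 35 genes covered glycolysis, the enzymes that make and break its sugar bisphosphates, and glucose carriers. At least 1 peak lay in 6 of the 35 (17.1%), and the share among all protein-coding genes was 6.96%. PFKP is 1 of the 6 because it was selected for its peaks. Both shares take in chromosomes with 0 listed peaks, so they are given as a description only. PFKFB3, which makes and breaks fructose 2,6-bisphosphate, the activator of phosphofructokinase, held 5 peaks, all intronic. PKM, the pyruvate kinase gene, held 4. HKDC1, a hexokinase gene, held 2, 1 of them in an exon, and HK1, the gene of hexokinase 1, held 1 exonic peak. PFKFB4, a relative of PFKFB3, held 1.

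The listed peaks are spread unevenly over the chromosomes. Of the 35 genes, 20 lie on chromosomes with 0 listed peaks, among them PFKL and PFKM, so these data do not compare the 3 phosphofructokinases. Chromosome 10 carries 5 of the list's genes. PGAM1 held 0 peaks, and the other 4, with PFKP among them by its selection, held at least 1 peak. On that chromosome 31.9% of protein-coding genes held one. The 2 PFKP peaks were among 15 in the list.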

How the data were processed

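RIP-seq was measured in PLC/PRF5 cells overexpressing MTR4-HA, with 1 anti-HA and 1 IgG library. The submitters' processing notes name hg19 and TopHat2 2.0.13 for mapping, and the study's methods name RIPSeeker for peak calling, Homer for annotation and MEME-ChIP for motifs. The protocol names the IgG capture as the control. Caller settings, and whether that library entered the peak call, are not given in the sources used here. The deposited list holds positions, names, a strand and a score. Per the values, the authors' score takes 60 and 1 only and was not used to rank peaks. The strand is + on every line and was not used. The depth of each library is unknown. The IgG library was not analysed here, and 0 columns of per-sample values were left out.

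Positions were counted from 1 and compared with GRCh37 and GENCODE release 44 mapped to it. A peak belonged to a gene if it shared 1 base with it, and its class was taken at its midpoint over all transcripts. Names of genes followed a rule: both genes, the genes of the stretch with a peak or coding for protein, glycolysis genes with a peak, and the 5 genes of chromosome 10 with the most peaks, ties added. FNDC3B and SNHG14 were added for comparison after their values were seen. The members, lists and comparisons were chosen with earlier results of these data known. With 1 library and no values per library, no test was run. Shares have Wilson 95% intervals, which cover counting error only. Beside a count of 0, the limit of 3 counts is given as well. RefSeq start sites (GRCh38.p14 table) were placed on hg19 by exact match of 300 bases. Overlap and motif counting were tested on simulated data. Python 3.11.15, pandas 2.3.3, NumPy 2.4.6, SciPy 1.17.1 and matplotlib 3.10.9 were used.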

Additional observations from a re-analysis of the deposited data

How the results depend on the processing

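Of 27 alternatives, 21 left the value within the limits set for it and 6 moved it. Counting LOC105376360 as a gene up to peak 93, an alternative chosen after seeing the data, took the share of peaks in no gene from 69.4% to 0.0%. That peak is the last one in no GENCODE gene, so the 0.0% follows from the end chosen. A 1 Mb grid shifted by 500 kb split the run and left 25 peaks per Mb in the window in place of 49, which still ranked 1 on the chromosome. Reading the CCANC motif (no A at N) as CCAGNC gave 24.5% of peaks in place of 79.6%, and searching both strands gave 93.9%. A run of 8 A in place of the poly(A)-like motif gave 10.2% in place of 0%. The mean spacing over the window was 14180 bases and the median 5850. The counts in PFKP, LINC02669 and the window were the same under every alternative listed for them, except that widening LINC02669 by 10 kb on each side gave 13 peaks. No paired analysis was possible because there was a single library per antibody and no value per library. Depth and enrichment are unknown, so a gap without peaks cannot be read as unbound RNA.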

Other observations

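The names of the peaks carry running numbers that follow position, and numbers are missing from the deposited list. Between peaks 34 and 98, 49 of 65 numbers were listed (75.4%), and between peaks 44 and 91 44 of 48 were (91.7%). On chromosome 10 outside this stretch, 465 of 1636 were listed (28.4%). All 54 numbers of FNDC3B were present, and 22 of 28 of SNHG14 (78.6%). Numbers 36 to 43, which fall between PFKP and the run, were all missing, as was 69 within LINC02669. Why numbers are missing is not given in the sources used here.

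Words of 24 bases that occur once on chromosome 10 were counted in each peak, a check added after the data were seen. In 37 of 49 peaks (75.5%) every such word was single, against 55.8% of the 400-base windows of the stretch. In peaks 44 to 91 the share was 75.0%, against 60.1% of the windows of their span. The mean share of single words was 95.7 ± 11.8% (SD, n = 49) in peaks and 90.6 ± 17.4% in windows.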
